A study of Arabidopsis thaliana with 6 samples.

Results

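The 10 genes of the autonomous flowering pathway and the FRIGIDA system described here are FCA, FY, FPA, FLK, FLD, FVE, LD, REF6, FRI and FRL1, read in Arabidopsis thaliana seedlings with and without mutations in SIN3-LIKE genes. They were chosen by name, by their locus identifiers, and make up 10 of the 33602 loci in the count files. All 10 had enough reads to be tested. In flowering, the autonomous pathway keeps transcription of FLC low in all day lengths, and FLC, a MADS-box protein, represses the florigen gene FT and the floral integrator SOC1. Its RNA-binding arm (FCA, FY, FPA, FLK) acts on how transcripts of the FLC locus are processed, and its chromatin arm (FLD, FVE) removes active histone marks there. FRI works in the opposite direction: with FRL1 and other partners it recruits chromatin activators to FLC and raises its transcription.

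Seedlings grew at 16 h light and 8 h dark, and RNA was taken from their aerial tissue at 11 days of age, at ZT5 (5 h after lights on). One group was wild type of ecotype Col-0 and the other the snl1/2/3/4/5 quintuple mutant in the same ecotype, with 3 biological replicates each. The SNL proteins are relatives of yeast Sin3, a scaffold for histone deacetylases. Col-0 is known to carry a natural loss-of-function allele of FRI, and the labels name no restored FRI in either group, so FRI transcript here is not a measure of FRI activity. RefSeq (TAIR10.1) annotates a product of 314 residues for FRI in this ecotype, against 470 for FRL1. The sources used here do not give how each mutant allele was made.

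Total counts ran from 12622416 to 15774357 per library, and each member had between 71 and 850 reads in a library. Transcripts of SNL1 to SNL5 were lower in all mutant libraries, at 35.0, 4.26, 5.04, 16.1 and 52.9% of their wild-type means. SNL2 had 2.32, 2.65 and 7.57 CPM (counts relative to the library total, scaled between libraries by TMM) in mutant replicates 1 to 3 against 94.2 to 104 CPM in wild type, so mutant replicate 3 held more residual SNL2 transcript than the others. The 4 leaf markers summed to 35470 to 38950 CPM in wild type and 33680 to 41810 CPM in the mutant, with 0 called in either direction (0 also at an unadjusted p below 0.05, edgeR quasi-likelihood test). The 7 root markers summed to 46.2 to 56.0 CPM in wild type and 56.5 to 73.4 CPM in the mutant, with 2 higher (IRT1 and WOX5) and 0 lower. WOX5 was scarce, at means of 0.352 and 0.828 CPM. The others did not pass: PIN2 and EXPA7 were at 114 and 113% of wild type. RHD6, MYB36 and COBL9 were at 68.0, 92.7 and 95.5%. The 5 floral organ markers summed to 7.74 to 8.65 and 20.0 to 35.0 CPM, mostly through PI, while AP1 had 0 reads in wild type and 1 in the mutant. The part of these tissue markers in the results below was not tested. In bulk tissue, fewer cells of a type and less RNA per cell cannot be told apart.

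FCA and FLK were lower in the mutant, at 79.7% and 80.2% of their wild-type means, and none of the 10 genes was called higher. The threshold was an adjusted p below 0.05 in edgeR's quasi-likelihood test over all 19591 tested genes, with Benjamini-Hochberg adjustment. By that rule 2 of 10 members were lower, beside 16.5% of all tested genes. The 0 members called higher compare with 18.3% of all tested genes, and 0 were higher at an unadjusted p below 0.05 and 0 with DESeq2 or limma-voom. In either direction 34.8% of tested genes were called, so 2 members in 10 is not above the general level of change in this mutant. The total of 6811 called genes dropped to 4047 when wild-type replicate 1 was left out and to 4379 when mutant replicate 2 was. The median log2 fold change of the 10 members was -0.12, against 0.00 for all tested genes. The median absolute log2 fold change was 0.13 for the members and 0.27 for all tested genes.

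**Figure D1:**
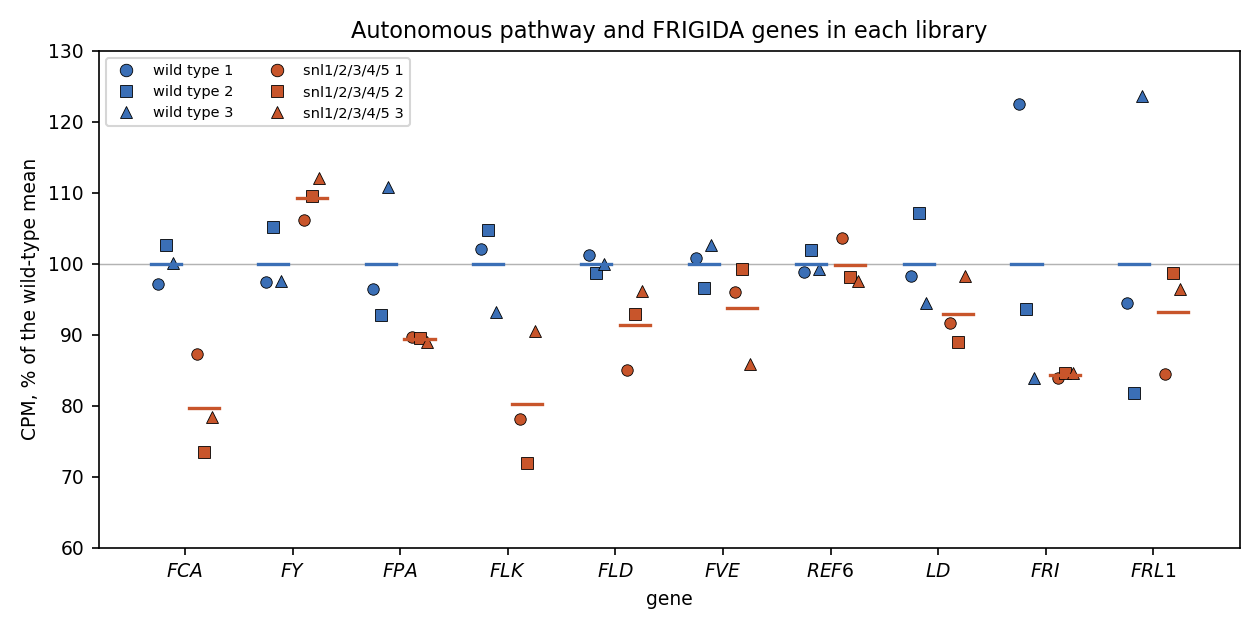
CPM of each of the 10 genes in each library, as percent of that gene's wild-type mean (vertical axis); marker shapes give replicates 1 to 3 and bars the group means. The mutant libraries of FCA lie between 73.5 and 87.3% and those of FLK between 71.9 and 90.6%, all under their wild-type libraries, while those of REF6 lie between 97.5 and 104%.

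FCA (AT4G16280, chromosome 4) encodes an RNA-binding protein that promotes proximal polyadenylation of antisense transcripts at FLC. It had 35.6, 37.6 and 36.7 CPM in wild-type replicates 1 to 3, and 32.0, 26.9 and 28.7 CPM in mutant replicates 1 to 3. The highest mutant library was still under the lowest wild-type one, with replicate 1 the highest of the mutant group. The wild-type mean of 36.6 ± 0.989 CPM thus fell to 29.2 ± 2.57 CPM in the mutant (SD, n = 3). The log2 fold change was -0.33 ± 0.08 (SE) with an adjusted p of 0.0177 (edgeR quasi-likelihood test), and its 95% interval ran from 0.698 to 0.91 times the wild-type level. The call was lost without wild-type replicate 1 (adjusted p = 0.0539), wild-type replicate 2 (0.0568) or mutant replicate 2 (0.065), in a range of 0.00845 to 0.065 over 14 alternatives. FCA produces several transcript forms by alternative polyadenylation and splicing, and counts per locus do not tell them apart.

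FY (AT5G13480, chromosome 5), a WD-repeat subunit of the cleavage and polyadenylation machinery and the physical partner of FCA, had 13.5, 14.6 and 13.5 CPM in wild type and 14.7, 15.2 and 15.5 CPM in the mutant. The mutant libraries all lay above the wild-type ones, the opposite order to FCA. The difference did not pass the test: its log2 fold change was 0.13 ± 0.08 (SE, adjusted p = 0.271, edgeR), with an interval of 0.955 to 1.25 times wild type. Within a library the ratio of FCA to FY reads needs no scaling between libraries. Wild-type ratios were 2.64, 2.58 and 2.71, and mutant ratios 2.17, 1.77 and 1.85. The 2 groups of ratios did not overlap. The 5 pairs of genes set against each other this way were chosen after values were seen, so their ratios are a description with no test. The ratios of FLK to FPA, FLD to FVE and FRI to FRL1 overlapped between the groups. Mean ratios in wild type and mutant were 0.6659 and 0.6525 for FLD to FVE, and 1.415 and 1.238 for FRI to FRL1.

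FPA (AT2G43410, chromosome 2) encodes an RNA-binding protein that, like FCA, favours proximal polyadenylation. Its values were 41.9, 40.4 and 48.2 CPM in wild type and 39.0, 39.0 and 38.7 CPM in the mutant. The mutant libraries were almost identical to one another and all below the wild-type ones, of which replicate 3 stood highest. The log2 fold change of -0.16 ± 0.08 (SE) did not pass the test (adjusted p = 0.165, edgeR), and its interval ran from 0.784 to 1.02 times wild type. On the other strand, 412 bp (7.81%) of the exons of FPA overlap AT2G09470, which the count files do not list, and 46 bp overlap AT2G43400, which was lower in the mutant (log2 fold change -0.47, adjusted p = 0.012). The library kit keeps strand, but the sources used here do not give the strand setting of the counting, so reads of overlapping loci may be mixed there.

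FLK (AT3G04610, chromosome 3), a KH-domain RNA-binding protein, had 55.9, 57.3 and 51.0 CPM in wild type and 42.8, 39.4 and 49.6 CPM in the mutant. The groups did not overlap, but mutant replicate 3, the library with the most residual SNL2 transcript, came closest to the wild-type range. Whether residual SNL transcript bears on this was not tested. On average FLK fell from 54.7 ± 3.32 CPM in wild type to 43.9 ± 5.19 CPM in the mutant (SD, n = 3). The log2 fold change was -0.32 ± 0.10 (SE) with an adjusted p of 0.0342 (edgeR quasi-likelihood test), and the interval ran from 0.687 to 0.935 times wild type. The call was lost when any one of these libraries was left out: wild-type replicate 1 (adjusted p = 0.111), wild-type replicate 2 (0.102), mutant replicate 1 (0.0707) and mutant replicate 2 (0.116). Without mutant replicate 3 the log2 fold change was -0.42 and the adjusted p 0.00806, the lowest of a range up to 0.116. Set against FPA reads in the same library, FLK gave wild-type ratios of 1.33, 1.42 and 1.06 and mutant ratios of 1.1, 1.01 and 1.28, which overlapped.

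Neither gene of the chromatin arm passed the test. FLD (AT3G10390, chromosome 3), a relative of the human histone demethylase LSD1, had 25.0, 24.3 and 24.7 CPM in wild type and 21.0, 22.9 and 23.7 CPM in the mutant. All its mutant libraries were lower, with mutant replicate 3 closest to the wild-type range (log2 fold change -0.13 ± 0.08 SE, adjusted p = 0.233, edgeR). FVE (AT2G19520, chromosome 2), a WD-repeat histone-binding protein also known as MSI4 that associates with histone deacetylase complexes, had 37.4, 35.8 and 38.0 CPM in wild type and 35.6, 36.8 and 31.8 CPM in the mutant. These groups overlapped through mutant replicate 2, and mutant replicate 3 was the lowest (log2 fold change -0.09 ± 0.08 SE, adjusted p = 0.393). The intervals were 0.806 to 1.04 times wild type for FLD and 0.827 to 1.06 for FVE. The exons of FLD overlap 75 bp of AT3G10405 on the other strand, a locus that was itself lower (log2 fold change -0.36, adjusted p = 0.00629).

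REF6 (AT3G48430, chromosome 3), a Jumonji-type demethylase that removes trimethylation from lysine 27 of histone H3, had the closest group means of the members. Its libraries gave 42.3, 43.6 and 42.4 CPM in wild type and 44.4, 41.9 and 41.7 CPM in the mutant. The groups overlapped, with a log2 fold change of 0.00 ± 0.07 (SE, adjusted p = 0.975, edgeR) and an interval of 0.898 to 1.11 times wild type. ELF6, its close relative, fell in the same libraries from 58.2 ± 1.01 to 42.6 ± 1.48 CPM (log2 fold change -0.45 ± 0.07 SE, adjusted p = 0.00183) and was called in all 14 alternatives. Per REF6 read there were 1.4, 1.31 and 1.37 ELF6 reads in wild-type libraries, against 0.997, 0.984 and 1.02 in mutant libraries. These ratios did not overlap between groups either.

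**Figure D2:**
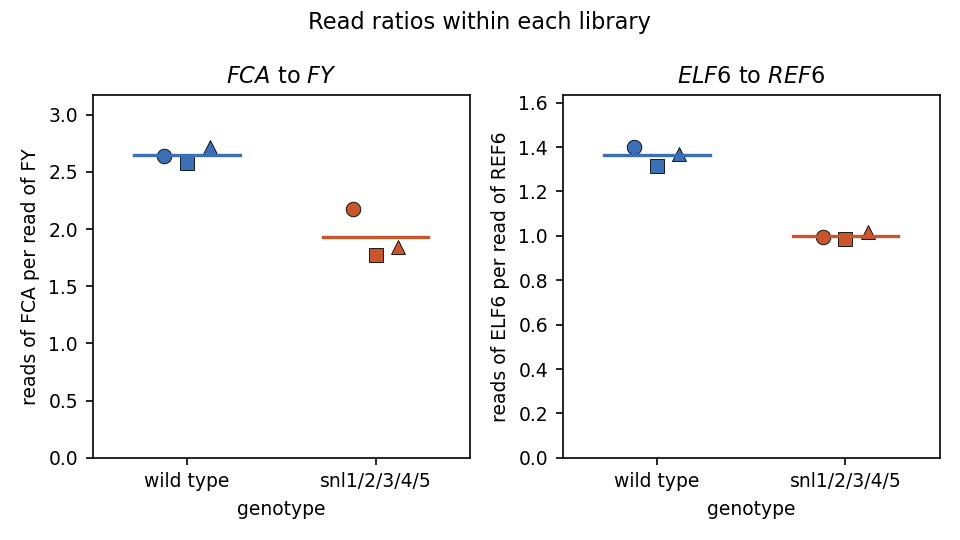
Reads of FCA per read of FY (left) and of ELF6 per read of REF6 (right) in each library, by genotype; marker shapes give replicates 1 to 3 and bars the group means, and the axes start at 0. The means drop from 2.64 to 1.93 and from 1.36 to 0.999, with no overlap between genotypes. FCA and ELF6 were already called lower as single genes, while FY and REF6 did not pass. All pairs were chosen after values were seen, and how often ratios of other gene pairs separate was not computed. For single genes, the groups did not overlap for 49.8% of those tested. The other pairs compared, FLK to FPA, FLD to FVE and FRI to FRL1, overlapped and are not drawn.

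LD (AT4G02560, chromosome 4), a homeodomain protein, had 30.6, 33.4 and 29.4 CPM in wild type and 28.6, 27.7 and 30.6 CPM in the mutant. Mutant replicate 3 reached the wild-type range, and the difference did not pass the test (log2 fold change -0.11 ± 0.08 SE, adjusted p = 0.337, edgeR, interval 0.816 to 1.06 times wild type).

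The FRIGIDA genes were the least abundant members and did not pass the test. FRI (AT4G00650, chromosome 4) had 10.9, 8.29 and 7.44 CPM in wild type and 7.43, 7.49 and 7.5 CPM in the mutant. Wild-type replicate 1 stood above all other libraries and wild-type replicate 3 lay inside the mutant range, so the lower mutant mean (84.4% of wild type) rests on 2 wild-type libraries. The log2 fold change was -0.25 ± 0.15 (SE, adjusted p = 0.235, edgeR) and moved to -0.07 without wild-type replicate 1. On the other strand, 195 bp (9.19%) of its exons overlap AT4G03675, which the count files do not list, and 17 bp overlap AT4G00651, which had 0 to 3 reads per library. FRL1 (AT5G16320, chromosome 5), a FRI relative that FRI needs for full activity on FLC, had 6.15, 5.33 and 8.04 CPM in wild type and 5.5, 6.42 and 6.27 CPM in the mutant. Its groups overlapped (log2 fold change -0.09 ± 0.17 SE, adjusted p = 0.698), and the sign turned to 0.08 without wild-type replicate 3. These genes had the widest intervals of the 10, from 0.661 to 1.07 times wild type for FRI and from 0.713 to 1.23 for FRL1.

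**Figure D3:**
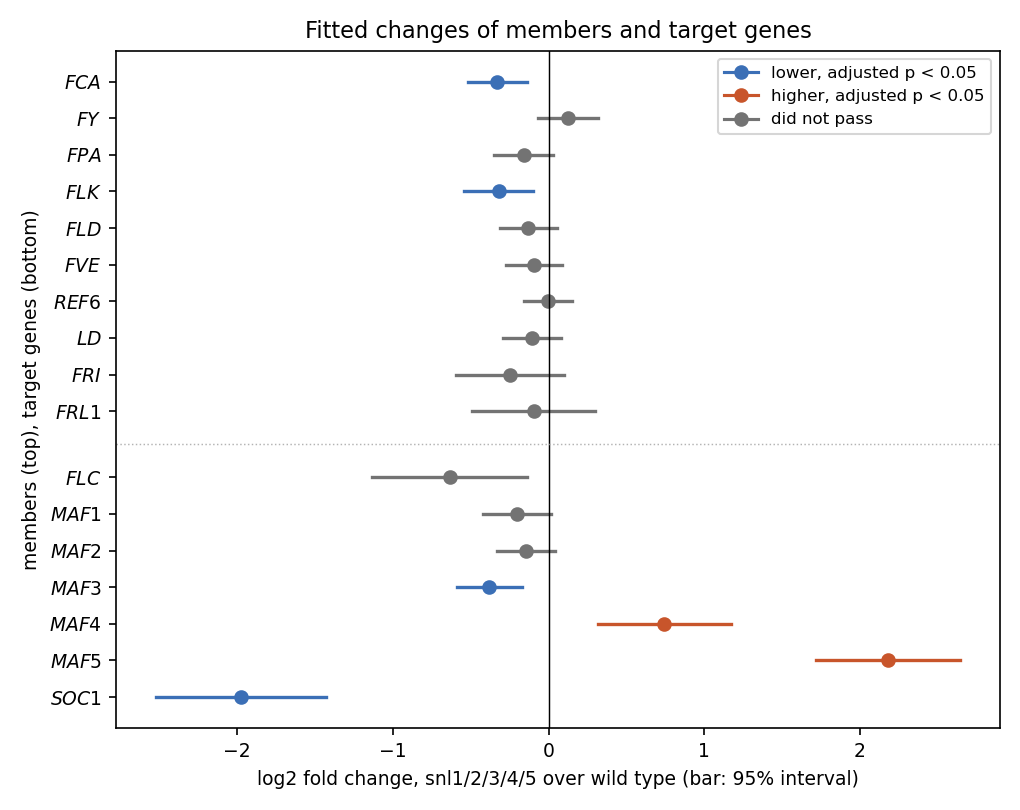
Fitted log2 fold change of the mutant over wild type (horizontal axis) with its 95% interval, for the 10 members above the dotted line and 7 target genes below it. The members' intervals all lie between 0.661 and 1.25 times the wild-type level, whereas MAF5 and SOC1 sit far to either side.

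Taking the 10 genes side by side, 9 means were lower in the mutant and 1, that of FY, was higher. The groups did not overlap for 5 of 10 (FCA, FY, FPA, FLD and FLK), near the 49.8% of all tested genes for which this held. The 95% intervals of all 10 lay between 0.661 and 1.25 times the wild-type level. None of the 10 is among the 1175 loci of the authors' deposited table of changed genes, whose smallest log2 fold change is 1.00 in size. Summed over the 10 genes, the level was 299.1, 300.6 and 299.3 CPM in wild type and 270.9, 263.7 and 274.1 CPM in the mutant. The mutant mean was 30.1 CPM lower, of which FLK and FCA make up 60.5% and FPA 15.3%. Observed spread between replicates varied: the coefficient of variation of FRI was 20.0% among wild-type and 0.503% among mutant libraries, and that of FRL1 21.4% and 8.21%. FRI had only 96, 119 and 98 reads in mutant replicates 1 to 3. The fit's common biological coefficient of variation over all genes was 11%. With 3 libraries per group such values are imprecise, and whether spread differed between genotypes was not tested for any gene.

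Per exon length, the members spanned a 5.11-fold range in wild type. FLK was highest, at 20.6 ± 1.25 RPKM (CPM per kilobase of exon, SD, n = 3), followed by FVE at 17.0 ± 0.520 RPKM. LD, REF6, FPA and FLD followed at 9.49, 8.91, 8.25 and 7.83 RPKM, and each overlapped the next in its library values. FCA came below FLD without overlap, at 6.86 RPKM. Lowest, and apart from FCA, were FY, FRI and FRL1 at 4.89, 4.18 and 4.04 RPKM, again with overlap between neighbours. FRL1 lay above 29.4% of the 19472 tested genes with an annotated length, REF6 above 50.1% and FLK above 74.5%. In the mutant FLK and FVE overlapped, at 16.5 and 15.9 RPKM, and so did FCA and FY, at 5.47 and 5.34 RPKM. With the longest annotated transcript as the length, FPA moved from the fifth place to the third in wild type, at 10.6 RPKM.

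**Figure D4:**
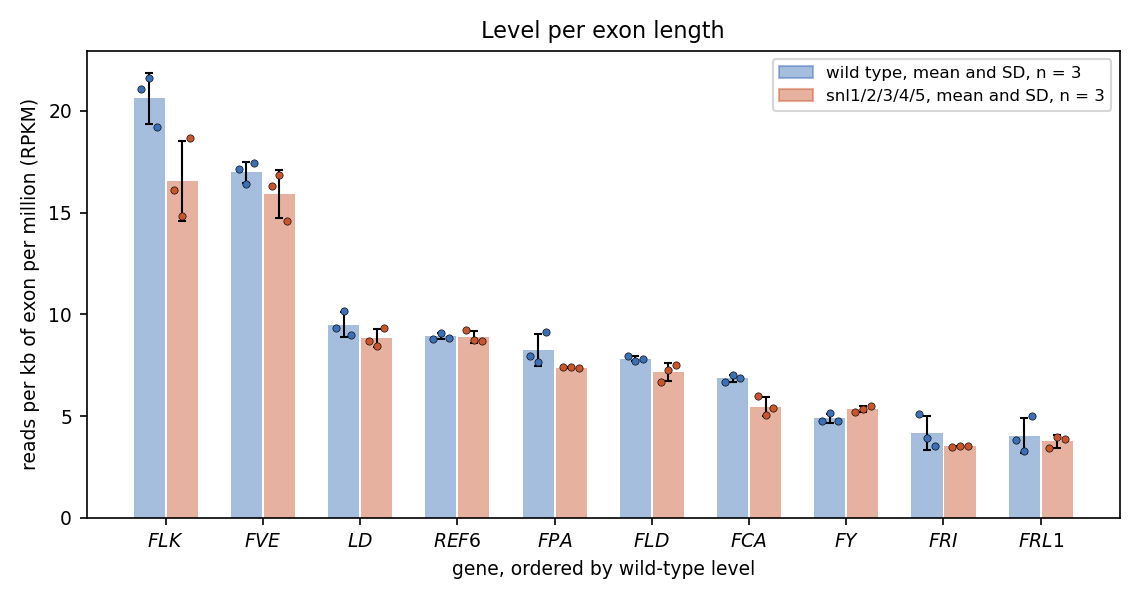
Level of each gene as CPM per kilobase of exon (RPKM, vertical axis from 0) in wild type and mutant, ordered by the wild-type mean; bars are means, whiskers SDs and points the 3 libraries. FLK and FVE stand above the other 8 genes in both genotypes, and the FLK and FVE points overlap in the mutant only.

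The members' best-known output was read in the same libraries. Wild-type libraries held 63, 64 and 38 reads of FLC itself (4.17, 4.32 and 2.88 CPM), and mutant libraries 32, 33 and 37 (2.48, 2.08 and 2.83 CPM). Wild-type replicate 3 came close to the mutant libraries. The log2 fold change of -0.63 ± 0.22 (SE) did not pass the threshold (adjusted p = 0.0518, edgeR, range 0.031 to 0.171 over 14 alternatives, 4 of them below 0.05). FLC had few reads at all, and 68.1% of its exon length overlaps the lncRNA locus AT5G01675 on the other strand, which the count files do not list. Of the 5 FLC relatives, MAF5 and MAF4 were higher, at log2 fold changes of 2.18 (adjusted p = 0.000312) and 0.74, MAF3 was lower at -0.38 (adjusted p = 0.0135), and MAF1 and MAF2, at -0.20 and -0.15, did not pass (adjusted p = 0.13 and 0.197). The MAF4 call (adjusted p = 0.0167) did not survive the loss of wild-type replicate 1 (0.0726), wild-type replicate 3 (0.0556) or mutant replicate 2 (0.0698), in a range of 0.00858 to 0.0726, and the MAF3 call with the DESeq2 run (0.0545, range 0.0128 to 0.0545). Downstream, SOC1 had 32.4, 29.1 and 33.1 CPM in wild type and 4.88, 7.49 and 11.7 CPM in the mutant. Its log2 fold change was -1.97 (adjusted p = 0.000862, edgeR). FT, under the filter, had 1, 0 and 0 reads against 4, 13 and 5 (two-sided exact permutation test on CPM, p = 0.1, the smallest possible). Without the filter, and in the DESeq2 default run, the count of targets called higher was 3 rather than 2. The added gene was FT, as all targets but MAF4, MAF5 and FT were lower in sign in both.

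Genes related to the members were read from 4 further lists, whose counts stand beside 18.3% higher and 16.5% lower among all tested genes. Of 3 FRIGIDA complex partners, 0 were higher (0 at an unadjusted p below 0.05 and 0 with DESeq2 or limma-voom) and 1 was lower. That was SUF4, a zinc-finger protein through which the complex binds FLC, at 35.4 ± 1.92 and 28.5 ± 2.71 CPM (log2 fold change -0.31 ± 0.09 SE, adjusted p = 0.0284, edgeR). Its call was lost without any one of wild-type replicates 1 to 3 or mutant replicates 2 and 3 (range 0.0167 to 0.123 over 14 alternatives). FRL2 and FES1 did not pass, at log2 fold changes of -0.26 and 0.05.

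Among 8 relatives of FLD, FVE and REF6, 1 was higher, 2 were lower and 5 did not pass, with a median log2 fold change of -0.10. ELF6 was the lower gene described beside REF6. MSI2 fell and MSI3 rose, both histone-binding relatives of FVE, with log2 fold changes of -0.27 ± 0.08 and 0.46 ± 0.10 (SE, adjusted p = 0.027 and 0.011, edgeR). The MSI3 call was lost without wild-type replicate 1 (0.054, range 0.0104 to 0.054). The MSI2 call was lost without any one library except mutant replicate 3, and with the DESeq2 run (range 0.0259 to 0.124). The demethylase relatives of FLD, LDL1, LDL2 and LDL3, did not pass (log2 fold changes 0.07, -0.13 and -0.16).

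**Figure D5:**
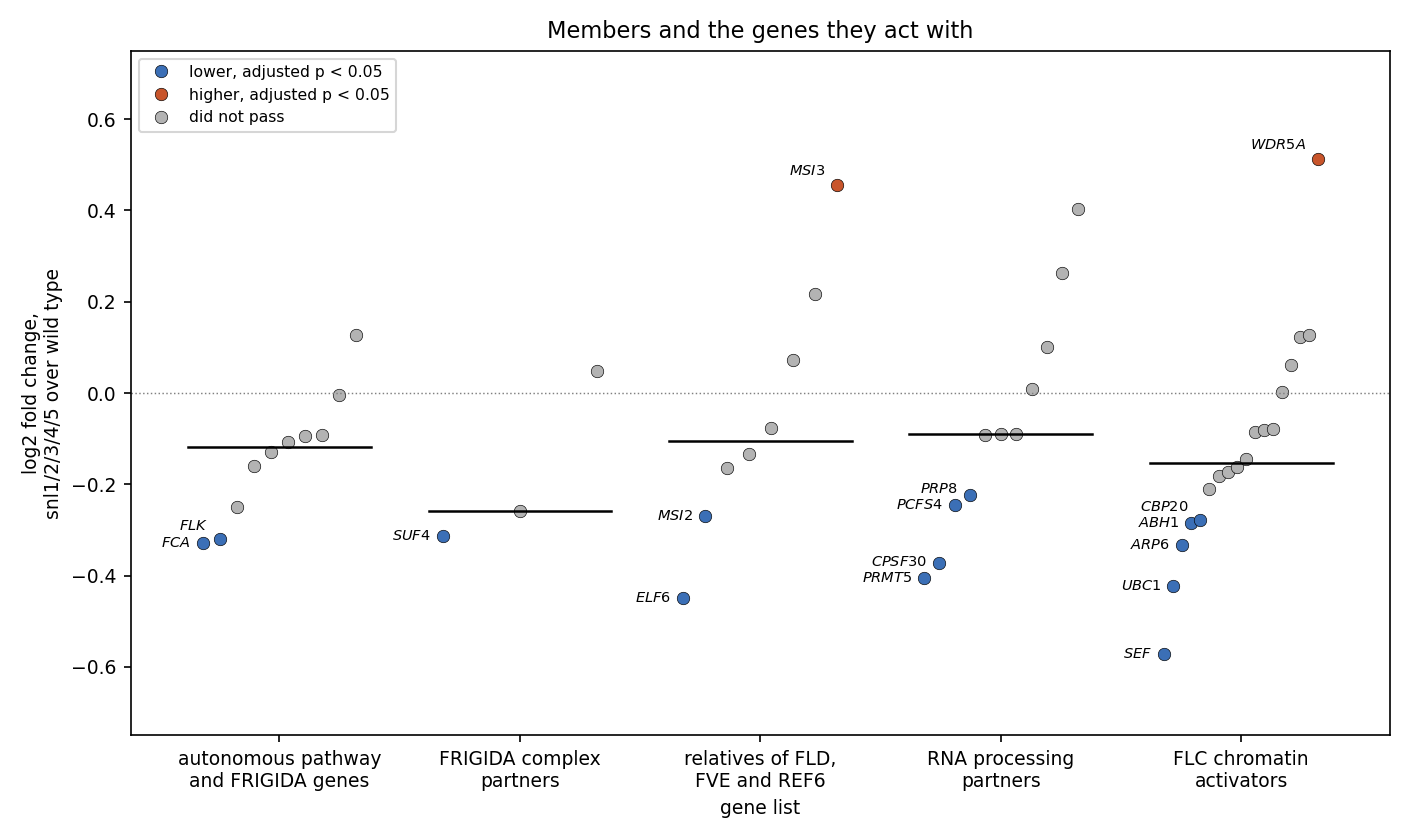
Log2 fold change of the mutant over wild type for the 10 members and 4 lists of genes related to them. Each point is a gene, coloured by its call at an adjusted p below 0.05, and black lines are list medians. All medians lie between -0.26 and -0.09, and the called genes of each list are named.

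Of 11 genes listed as RNA processing partners, 0 were higher (2 at an unadjusted p below 0.05, 1 with DESeq2 and 0 with limma-voom). A further 4 were lower and 7 did not pass, with a list median log2 fold change of -0.09. The list is broader than direct partners of FCA, FY and FPA, and PRMT5 and GRP7 are among its wider entries. The lower genes were the arginine methyltransferase gene PRMT5 (-0.41, adjusted p = 0.0143, edgeR), the polyadenylation factor genes CPSF30 (-0.37, 0.0169) and PCFS4 (-0.25, 0.0332), and the spliceosome gene PRP8 (-0.22, 0.0463). That count of 4 dropped to 0 when wild-type replicate 1, wild-type replicate 2 or mutant replicate 2 was left out, and to 2 when wild-type replicate 3 was. PRMT5 and CPSF30 each passed in 11 of 14 alternatives, PCFS4 in 7 and PRP8 in 6. The cleavage factor genes CSTF64 and CSTF77 did not pass, at log2 fold changes of 0.26 and -0.09. GRP7 had the largest positive change of the list, at 0.40, and did not pass either (adjusted p = 0.0741, edgeR). It had 244, 258 and 279 CPM in wild type and 385, 394 and 255 CPM in the mutant, which overlapped. CSTF64 and GRP7 were the genes higher at an unadjusted p below 0.05.

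Of 18 activators of FLC, most of them chromatin factors, 1 was higher, 5 were lower and 12 did not pass, with a median log2 fold change of -0.15. The list also holds the cap-binding genes CBP20 and ABH1, which are not chromatin factors, and both are among the lower genes. UBC1, which ubiquitinates histone H2B, went from 134 ± 1.54 to 99.9 ± 3.55 CPM (log2 fold change -0.42 ± 0.06 SE, adjusted p = 0.00192, edgeR) and was called in all 14 alternatives. Its near relative UBC2 did not pass (-0.08, adjusted p = 0.371). SEF, a subunit of the SWR1 chromatin remodeller, had -0.57 (adjusted p = 0.011), and the cap-binding genes CBP20 and ABH1 had -0.28 and -0.29 (0.014 and 0.0214). Named after their values were seen, ARP6 was the fifth lower gene (-0.33, 0.0282) and WDR5A the higher one (0.51, 0.0306). That count of 5 dropped to 2 when wild-type replicate 1 or wild-type replicate 2 was left out, and to 3 when wild-type replicate 3 or mutant replicate 2 was. It rose to 7 when mutant replicate 1 was left out. With 1 library left out, WDR5A was still called only when that library was mutant replicate 3 (range 0.0456 to 0.101), and it was not called in the DESeq2 run (0.113). ARP6 was lost without any one library except mutant replicate 3, and in the DESeq2 run (0.0543), with adjusted p from 0.00582 to 0.0988 over 14 alternatives. ABH1 was lost when any one wild-type library or mutant replicate 2 was left out (range 0.00966 to 0.075). SEF was lost without wild-type replicate 1 (0.0534), and CBP20 without wild-type replicate 2 (0.0507). The exons of ELF6, MSI2, MSI3, PRMT5, UBC1 and ARP6 overlap a locus on the other strand. In that order, the overlaps cover 4.09, 4.84, 18.6, 1.08, 26.1 and 0.99% of exon length. SUF4 exons overlap AT1G06397 on the same strand by 146 bp.

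The members lie on chromosomes 2 to 5, and their nearest protein-coding neighbours were read as a description of position. Of 20 neighbours 15 were tested, of which 2 were higher and 5 lower, beside 18.3% and 16.5% of all tested genes. Both tested neighbours of FLK, AT3G04600 and DAN1, did not pass (log2 fold changes 0.16 and 0.65, adjusted p = 0.131 and 0.106), and neither neighbour of FCA had enough reads to be tested. No near-identical copy of any member was found, at 95% identity over 100 bp of exon.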

How the data were processed

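RNA-seq was read in 6 libraries, 3 per genotype, grouped by title and genotype label. Each library's deposited file holds whole-number counts of reads per locus, with no normalization. The authors also deposited tables of changed genes with log2 fold changes and adjusted p-values, used only to ask whether a member is listed, and 24 per-library columns in them were not used. The tools named in the submitters' processing notes are cutadapt 1.4, TopHat, HTSeq and edgeR, and the genome is TAIR10. The sources used here give neither tool roles nor the strand setting.

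Genes were kept with filterByExpr (minimum count 10, minimum total 15), scaled by TMM and tested with edgeR 4.0.16 (glmQLFit, glmQLFTest, genotype alone) in R 4.3.3, with Benjamini-Hochberg adjustment over 19591 genes. The SE is the log2 fold change divided by the square root of F, and intervals use the fit's degrees of freedom. The fit was tested on simulated counts. Exon lengths, protein lengths, neighbours and symbols come from RefSeq TAIR10.1, which matched 32835 loci. Because the builds differ in name, no coordinates are printed. FLX and JMJ13 were left out, since RefSeq does not pair these symbols with a locus. Named were all members, 8 targets, SNL genes and up to 4 called genes per list by adjusted p. ARP6, WDR5A, FRL2, FES1, LDL1 to LDL3, CSTF64, CSTF77, GRP7, UBC2, neighbouring and overlapping loci and single marker genes were named after their values were seen. The members and lists were chosen with earlier results of these data known, and the gene pairs were added after values were seen and given no test. Alternatives were edgeR with RLE scaling in place of TMM, the default run of DESeq2 1.42.0, scaling by library totals and removal of organelle genes. Further ones were dropping the filter, a filter of 1 CPM in 3 libraries, limma-voom (limma 3.58.1), the replicate block and each library left out.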

Additional observations from a re-analysis of the deposited data

How the results depend on the processing

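FCA and FLK stayed lower in sign under all 14 alternatives, with log2 fold changes from -0.40 to -0.27 and from -0.42 to -0.24, and passed the threshold in 11 and 9 of them. The count of 2 lower members ranged from 0 to 2 when 1 library was left out (0 when wild-type replicate 1, wild-type replicate 2 or mutant replicate 2 was left out, and 1 when mutant replicate 1 was), and the 0 higher members stayed 0 in every alternative. The count of all called genes, 6811, ranged from 4047 to 7317 when 1 library was left out. The replicate numbers of the titles gave no clear pairing of the libraries. Correlations of same-numbered deviations were 0.0136, 0.148 and -0.0561, and those of differently numbered ones ran from -0.131 to 0.126. The value of 0.148, for replicate 2, was the highest. With the replicate block 1 member, FCA, was lower (adjusted p = 0.0383, with FLK at 0.065, edgeR) and 5874 genes were called. The block also ended the calls of PCFS4 (0.0649) and PRP8 (0.0956), of MSI2 (0.0652) and of WDR5A (0.0608). The sign of REF6 turned to 0.01 without wild-type replicate 2, mutant replicate 2 or mutant replicate 3 (0.0098, 0.0105 and 0.0129), and that of FRL1 to 0.08 without wild-type replicate 3 (0.0802). With 1 library left out, REF6 ranged from -0.0305 to 0.0129 and FRL1 from -0.2202 to 0.0802. No other scaling shifted the median of all genes by more than 0.0025 on the log2 scale. Depth limits the members FRI and FRL1, with 698 and 533 reads over 6 libraries, and among targets FLC with 267 and FT with 23.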
